A study of Mus musculus with 9 samples.

Results

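The insulin receptor signalling cascade was examined in epididymal fat through 36 genes, from the receptor Insr to the mTOR and FoxO branches. Its members were chosen by name, as the probes whose gene symbol in the platform annotation is one of these 36 symbols. 34 of the 36 genes had a probe, 83 probes of the 45281 on each array. Rps6kb1 and Enpp1 had none in that annotation and were not analysed here. 31 members had a probe detected above background often enough to be tested, and these 31 make up the comparison below. RNA had been hybridised to Illumina bead arrays, with 1 array per mouse. The tg/tg group held 5 mice transgenic for Tm5NM1, a tropomyosin of the cytoskeleton, and the wt/wt group 4 wild-type mice. All 9 were FVB/N mice of 3 months, fasted for 14 to 16 h before the epididymal fat was taken. The labels state neither the promoter of the transgene nor the number of founder lines. Mice are named by the submitters' numbers.

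Insulin binds a receptor tyrosine kinase that phosphorylates the substrates Irs1 and Irs2, and these recruit PI 3-kinase. The lipid it makes brings Akt to the membrane, where Pdpk1 and the mTOR complex that contains Rictor activate it. In fat cells Akt2 drives GLUT4 to the surface and restrains lipolysis, and Akt also inhibits GSK3, the Tsc1 and Tsc2 complex and the FoxO factors. Phosphatases, adaptor proteins such as Grb10 and Grb14, and SOCS proteins act as brakes. Most of this control acts on proteins, by phosphorylation, and an RNA array does not measure it.

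Transcripts of 30 of the 31 tested members were detected on all 9 arrays. No member passed the test between transgenic and wild-type fat after adjustment over all 23354 tested probes (limma with Benjamini-Hochberg adjustment at 0.05, 0 of 31 higher and 0 of 31 lower). Over all 12171 tested genes the percentages called were 0 higher and 0.107 lower. At an unadjusted p under 0.05 none of the members was higher and 1, Foxo3, was lower, against 5.55% and 3.49% of all tested genes (9.05% in either direction). 18 members had a higher and 13 a lower mean in transgenic fat, with a median log2 difference of 0.04, and over all tested genes 56.5% were higher and the median was also 0.04. With neither background correction nor normalization between arrays, 30 members were higher and 1 lower, 7 of them past the threshold, at a median of 0.38 over the members and 0.34 over all tested genes; normalization alone was not left out. For 30 of the 31 members the 95% interval of the difference lay within 1 log2 unit either side of 0, as it did for 82.4% of all tested genes. Within 0.5 log2 units lay the intervals of 12 members and of 31.1% of all tested genes. Levels are normalized log2 intensities, which include a small constant added to every probe, so that differences of dim probes are understated. In bulk fat, fewer cells of a type and less RNA per cell cannot be told apart.

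**Figure D1:**
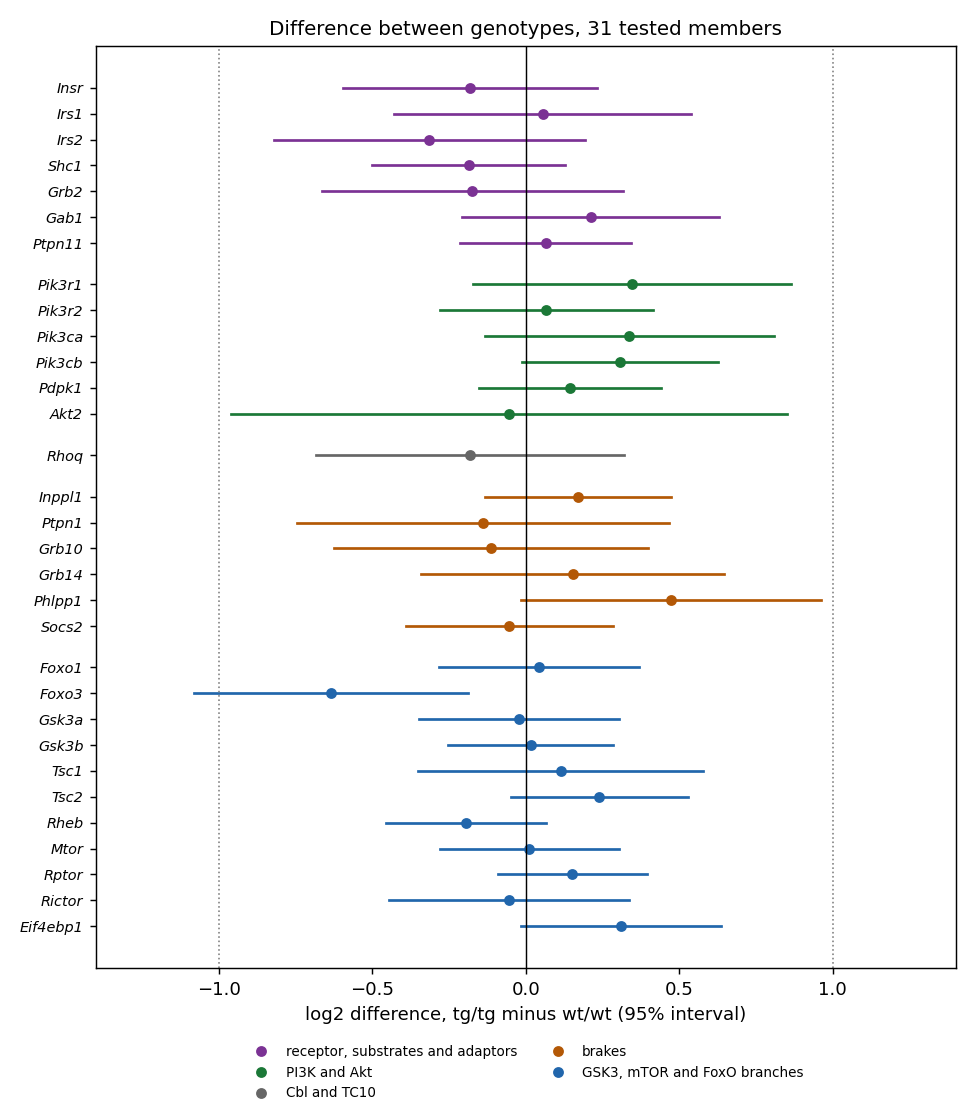
Log2 difference, tg/tg minus wt/wt, of the 31 tested members by role, with 95% intervals from limma; dotted lines mark 1 log2 unit. Every interval except that of Foxo3 includes 0, and that of Foxo3 runs from -1.08 to -0.19.

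Array weights estimate how closely an array follows its group. They were lowest for wild-type mouse 159, at 0.347, and transgenic mouse 152, at 0.369. Next came transgenic mouse 165, at 0.509, and wild-type mouse 143, at 0.668, and the others had 0.986 to 2.51. All 8 adipocyte markers, among them Adipoq and Plin1, were detected on every array. Their summed intensity was 110225, in mouse 152, to 166182 in transgenic and 114271 to 162310 in wild-type fat. Of these 8, 5 had a higher mean in transgenic fat (median difference 0.09). Fabp4 differed most, by 1.27, with overlap (limma, unadjusted p = 0.00649, adjusted p = 0.369). Markers of the epididymal epithelium varied widely between mice. The sum over 8 tested markers of 10 was 329 to 160037 in transgenic fat and 91194 to 349898 in wild-type fat. Mouse 152 stood at 160037 and the other transgenic mice at or below 19957. All 8 had a lower mean in transgenic fat, with a median difference of -6.16. For Lcn8, Lcn9, Lcn10, Defb48 and Cst11 every transgenic mouse, mouse 152 included, lay below every wild-type mouse. In transgenic fat 5 of 5 tested endothelial markers (median difference 0.42) and 3 of 3 lymphocyte markers (median 0.68) had a higher mean, as did 56.5% of all tested genes. 7 of 7 mesothelial markers had a lower one (median -0.89). The lymphocyte sum was 850 and 978 in transgenic mice 165 and 164, and 289 to 367 in the other transgenic mice. In wild-type mice it was 244 to 397. The endothelial and mesothelial sums also overlapped between the genotypes. The part of these marker differences in the results below was not tested. Tpm3, the gene that encodes Tm5NM1, read 13.39 ± 0.27 (SD, n = 5) in the transgenic group and 12.85 ± 0.34 (SD, n = 4) in the wild type. The difference was 0.54, interval 0.10 to 0.98, with overlap (limma, unadjusted p = 0.0215, adjusted p = 0.452). Whether this probe reads the transcript of the transgene was not tested. Median raw signals were 142 to 192 per array. Wild-type mice 142, 143 and 159 were the dimmest, and mouse 141, at 172, was within the transgenic range.

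Of the receptor, its substrates and adaptors, all 7 were tested, 3 with a higher and 4 with a lower mean (median -0.17, limma adjusted p from 0.696 to 0.956). The receptor Insr read 12.65, 12.98, 12.84 and 13.56 in wild-type mice 141, 142, 143 and 159, and 12.73, 12.65, 12.90, 13.02 and 12.84 in transgenic mice 165, 152, 147, 163 and 164. Mouse 159 was the highest of all, and the other 8 mice lay between 12.65 and 13.02 with the genotypes mixed. The log2 difference was -0.18, with a 95% interval of -0.60 to 0.23 (limma adjusted p = 0.800), and without mouse 159 it was -0.00.

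Irs2, the substrate whose transcript is known to increase with fasting in liver, had the same high animal. It read 10.83, 11.14, 10.66 and 11.60 in wild-type mice 141, 142, 143 and 159 and 10.84, 10.21, 11.03, 10.76 and 10.89 in transgenic mice 165, 152, 147, 163 and 164. Mouse 159 gave the highest value and mouse 152 the lowest, and the 7 mice between them overlapped. The difference was -0.31, interval -0.82 to 0.19 (limma adjusted p = 0.696). It was -0.13 without mouse 159, -0.18 without mouse 152 and 0.00 with mice 152 and 159 both left out. Irs1, the other main substrate, was dim, detected in 4 of 5 transgenic and all 4 wild-type mice. It ranged from 5.52 in mouse 163 to 6.51 in mouse 147, both transgenic, and all wild-type mice lay between them, at 5.86 to 6.28. The difference was 0.05, interval -0.43 to 0.54 (limma adjusted p = 0.956).

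The stretches upstream of both substrate genes are shown because they hold the letters of a motif through which FoxO factors are known to act on insulin-responsive promoters, TGTTTTG, beside an E-box, CACGTG. Each motif was searched on both strands of the 250 bases before the start site in RefSeq's promoter windows (GRCm38.p6), and capitals mark the matches. The sequences run 5′ to 3′ on the minus strand, chr1:82291440-82291689 for Irs1 and chr8:11008930-11009179 for Irs2.
Irs1: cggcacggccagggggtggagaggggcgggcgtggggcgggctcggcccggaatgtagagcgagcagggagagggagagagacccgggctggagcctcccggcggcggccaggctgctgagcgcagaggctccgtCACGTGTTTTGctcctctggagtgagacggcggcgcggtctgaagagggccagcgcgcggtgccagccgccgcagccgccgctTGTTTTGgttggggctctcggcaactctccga
Irs2: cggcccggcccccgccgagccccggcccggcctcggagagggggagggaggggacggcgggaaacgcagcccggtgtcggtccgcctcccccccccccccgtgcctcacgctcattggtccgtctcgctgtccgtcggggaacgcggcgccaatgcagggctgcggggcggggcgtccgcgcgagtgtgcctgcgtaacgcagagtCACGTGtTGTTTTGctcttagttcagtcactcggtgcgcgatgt
In Irs1 TGTTTTG occurs 2 times, 111 to 105 and 32 to 26 bases before the start, and the first match overlaps the E-box by its letters TG. In Irs2 it occurs 1 time, 37 to 31 bases before the start, with 1 base between it and the E-box. TGTTTTG was found in 5.56% and CACGTG in 6.02% of all 32851 windows of this length, and both in 0.295%. Of the 33 members with a window, Irs1, Irs2 and Gab1 held TGTTTTG, and only Irs1 and Irs2 held both motifs. A match describes these letters and shows no binding.

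The genotypes overlapped for the adaptors. Gab1, a docking protein that binds PI 3-kinase, read 11.42 to 11.61 in the 4 wild-type mice and 11.29 to 12.25 in the 5 transgenic mice, with mouse 152 highest (difference 0.21, limma adjusted p = 0.761, and 0.08 without that mouse). Shc1 and Grb2, which link receptors to Ras, differed by -0.19 and -0.17 (adjusted p = 0.707 and 0.842). Ptpn11, the phosphatase SHP2, conveys signals from docking proteins. At its brightest probe it differed by 0.06, with one of the narrower intervals of the cascade, -0.22 to 0.34 (adjusted p = 0.905). Dimmer Ptpn11 probes, detected on all 9 arrays, differed by 0.34, interval -0.01 to 0.69, and by 0.33 (limma adjusted p = 0.537 and 0.638).

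**Figure D2:**
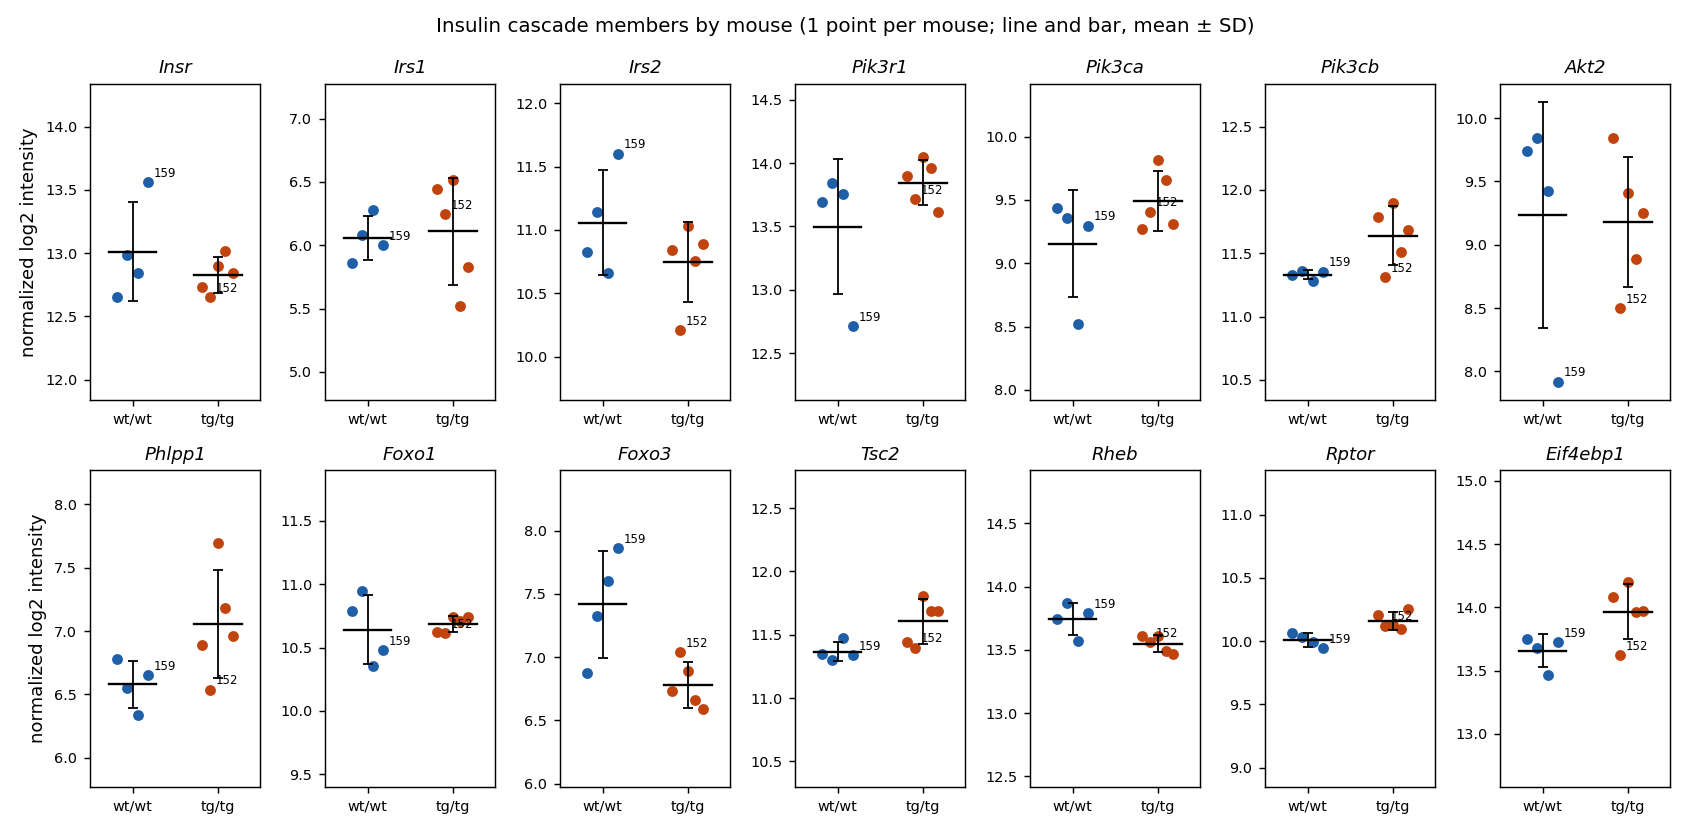
Normalized log2 intensity of 14 members in each mouse, by genotype, with mean and SD; every panel spans 2.5 log2 units, and mice 152 and 159 are labelled. Mouse 159 is highest for Insr, Irs2 and Foxo3 and lowest for Pik3r1 and Akt2, and the genotypes separate without overlap for Rptor alone.

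Genes of PI 3-kinase and Akt had a higher mean in transgenic fat at 5 of 6 tested members of 7 (median 0.23, limma adjusted p from 0.541 to 0.980). The catalytic subunit gene Pik3cb was uniform in wild-type fat, at 11.33, 11.36, 11.28 and 11.36 in mice 141, 142, 143 and 159, and read 11.78, 11.31, 11.90, 11.51 and 11.68 in transgenic mice 165, 152, 147, 163 and 164. 4 transgenic mice lay above all wild-type mice, and mouse 152 lay within the wild-type range. The difference was 0.31, 1.24-fold, interval -0.01 to 0.63 (limma adjusted p = 0.541), and 0.39 without mouse 152 (adjusted p = 0.187). Pik3ca, the other widely expressed catalytic subunit gene, read 9.44, 9.36, 8.52 and 9.30 in wild-type mice 141, 142, 143 and 159 and 9.27, 9.41, 9.81, 9.66 and 9.31 in transgenic mice 165, 152, 147, 163 and 164. Mouse 143 lay below all others. The difference was 0.34 (limma adjusted p = 0.643), and 0.13 without that mouse.

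Pik3r1, the main regulatory subunit gene, read 13.69, 13.84, 13.75 and 12.71 in wild-type mice 141, 142, 143 and 159 and 13.89, 13.71, 14.05, 13.96 and 13.61 in transgenic mice 165, 152, 147, 163 and 164. Mouse 159 lay below every other mouse, and the rest overlapped. The difference of 0.35, interval -0.17 to 0.86 (limma adjusted p = 0.672), was 0.08 without mouse 159. Pik3r2, the second regulatory subunit gene, differed by 0.07, and Pdpk1, the kinase that activates Akt, by 0.14 (adjusted p = 0.920 and 0.771).

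Akt2, the Akt form that mediates most insulin action in fat, varied more between mice than any other tested member. It read 9.74, 9.85, 9.43 and 7.92 in wild-type mice 141, 142, 143 and 159 and 9.85, 8.50, 9.41, 8.89 and 9.25 in transgenic mice 165, 152, 147, 163 and 164. The spread within genotypes was 0.70 log2 units, against a median of 0.25 over the members and 0.29 over all tested genes, and the lowest values were those of mice 159 and 152. With a difference of -0.05 and an interval of -0.96 to 0.85 (limma adjusted p = 0.980), a ratio of transgenic to wild-type Akt2 anywhere from 0.514 to 1.80 could not be told from no difference. Without mouse 159 the difference was -0.49 (adjusted p = 0.662) and without mouse 152 it was 0.12. The second Akt2 probe was again lowest in mice 152, 163 and 159, at 5.81, 5.92 and 5.97, and highest in wild-type mouse 142, at 7.27. Akt1 was detected in 2 transgenic mice and no wild-type mouse, at levels of 5.37 to 6.25, and was not tested.

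Among the other early signalling genes, Rhoq, which encodes TC10, a small GTPase tied to GLUT4 traffic through the Cbl pathway, read 10.44 to 11.13 in transgenic and 10.42 to 11.37 in wild-type fat (difference -0.18, limma adjusted p = 0.839). Its 2 highest mice were again 159 and 152, 1 of each genotype, and the difference was 0.01 without mouse 159 and -0.31 without mouse 152. Cbl was detected in 2 wild-type mice and no transgenic mouse and was not tested.

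The brakes on the cascade were divided, with 3 higher and 3 lower means among 6 tested members of 8 (median 0.05, limma adjusted p from 0.537 to 0.935). Phlpp1, a phosphatase that removes a phosphate from Akt, had the largest difference of them. It read 6.78, 6.55, 6.34 and 6.65 in wild-type mice 141, 142, 143 and 159 and 6.89, 6.54, 7.70, 7.18 and 6.96 in transgenic mice 165, 152, 147, 163 and 164. Mouse 152 lay within the wild-type range, and the other transgenic mice above it. The difference was 0.47, 1.39-fold, interval -0.01 to 0.96 (limma adjusted p = 0.537), 0.60 without mouse 152 (adjusted p = 0.186) and 0.31 without mouse 147 (adjusted p = 0.780). Without background correction it was 0.23 (adjusted p = 0.593).

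Ptpn1, the tyrosine phosphatase PTP1B that acts on the receptor, differed by -0.14, interval -0.74 to 0.47 (limma adjusted p = 0.907). Inppl1, the lipid phosphatase SHIP2, differed by 0.17 (adjusted p = 0.724). The receptor-binding adaptors Grb10 and Grb14 differed by -0.11 and 0.15 (adjusted p = 0.909 and 0.865). Grb10 was highest in mouse 159, at 12.86, as Insr and Irs2 were, and lowest in wild-type mouse 143, at 11.72, and transgenic mouse 152, at 11.78. Single mice moved these small differences across or close to 0: Grb10 was 0.08 without mouse 159, Ptpn1 0.07 without mouse 152 and Grb14 0.00 without mouse 143. Socs2, a feedback inhibitor of cytokine and growth hormone signals, differed by -0.05 (adjusted p = 0.935). Socs1 was detected in 3 transgenic mice and no wild-type mouse and was not tested.

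In the GSK3, mTOR and FoxO branches 7 of 11 tested members of 12 had a higher mean (median 0.02, limma adjusted p from 0.401 to 0.988). Foxo3, a forkhead factor that Akt keeps out of the nucleus, had the lowest unadjusted p of all members. Its only detected probe was dim and read 6.88, 7.33, 7.60 and 7.86 in wild-type mice 141, 142, 143 and 159 and 6.73, 7.04, 6.89, 6.66 and 6.59 in transgenic mice 165, 152, 147, 163 and 164. 3 wild-type mice lay above all transgenic mice, and mouse 141 lay among the transgenic mice. The log2 difference was -0.63, 1.55-fold lower, interval -1.08 to -0.19, with an unadjusted p of 0.00999 and a limma adjusted p of 0.401, and it was -0.49 without mouse 159 and -0.82 without mouse 141. Without background correction it was -0.33, and with neither background correction nor normalization between arrays -0.04. 2 further Foxo3 probes were detected on no array.

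Foxo1, the FoxO form best known for insulin action in liver and fat, had a smaller difference. It read 10.79, 10.95, 10.35 and 10.48 in wild-type mice 141, 142, 143 and 159 and 10.62, 10.62, 10.74, 10.71 and 10.74 in transgenic mice 165, 152, 147, 163 and 164. At this probe the transgenic mice all lay inside the wild-type range (difference 0.04, interval -0.28 to 0.37, limma adjusted p = 0.947). A dimmer Foxo1 probe differed by 0.35, interval -0.36 to 1.06 (limma adjusted p = 0.769). There transgenic mice 163 and 147, at 9.43 and 9.17, lay above the highest wild-type mouse, at 9.06. The kinase genes Gsk3a and Gsk3b, whose products restrain glycogen synthesis until Akt inhibits them, differed by -0.02 and 0.02, the latter with an interval of -0.25 to 0.29 (adjusted p = 0.975 and 0.980).

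Tsc1 and Tsc2 encode the complex that holds back Rheb, the small GTPase that activates mTOR complex 1. Tsc2 read 11.35, 11.30, 11.48 and 11.34 in wild-type mice 141, 142, 143 and 159 and 11.45, 11.40, 11.81, 11.68 and 11.69 in transgenic mice 165, 152, 147, 163 and 164. The 3 highest mice were transgenic, and mice 165 and 152 lay below wild-type mouse 143 (difference 0.24, limma adjusted p = 0.599, and adjusted p = 0.309 without mouse 152). Tsc1 differed by 0.11 (adjusted p = 0.897). Rheb read 13.74, 13.87, 13.57 and 13.79 in wild-type mice 141, 142, 143 and 159 and 13.61, 13.56, 13.61, 13.49 and 13.47 in transgenic mice 165, 152, 147, 163 and 164. Mouse 143 alone kept the genotypes from separating, at a difference of -0.19, interval -0.45 to 0.06 (limma adjusted p = 0.631).

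Rptor, the scaffold of mTOR complex 1, was the only member whose brightest probe did not overlap between the genotypes, against 1.96% of all tested genes with transgenic mice above and 1.37% below. It read 10.07, 10.03, 9.99 and 9.94 in wild-type mice 141, 142, 143 and 159 and 10.21, 10.12, 10.12, 10.09 and 10.25 in transgenic mice 165, 152, 147, 163 and 164. The gap between the closest mice of the genotypes was small, and so was the difference, at 0.15 or 1.11-fold, interval -0.09 to 0.39 (limma adjusted p = 0.691). Mtor itself differed by 0.01, interval -0.28 to 0.30, and Rictor by -0.05 (adjusted p = 0.988 and 0.944).

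Eif4ebp1, a repressor of translation that mTOR complex 1 inactivates, read 13.75, 13.68, 13.47 and 13.73 in wild-type mice 141, 142, 143 and 159 and 14.08, 13.62, 14.20, 13.96 and 13.97 in transgenic mice 165, 152, 147, 163 and 164. 4 transgenic mice were above all wild-type mice, and mouse 152 was below 3 of them. The difference was 0.31, 1.24-fold, interval -0.01 to 0.63 (limma adjusted p = 0.544), and 0.39 without mouse 152 (adjusted p = 0.188).

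Some mice held the highest or lowest value for a larger share of members than of all tested genes, others for a smaller share. Wild-type mouse 159 held the highest value of 7 members (Insr, Irs2, Rhoq, Grb10, Socs2, Foxo3 and Rictor) and the lowest of 4 (Ptpn11, Pik3r1, Akt2 and Rptor), 35.5% of the 31, where it held the highest or lowest value of 38.7% of all tested genes. Transgenic mouse 147 held the highest value of 8 members and the lowest of none, 25.8% of the members against 12.5% of all tested genes. Wild-type mouse 143 held the lowest value of 9 and the highest of 2, 35.5% of the members against 22.4% of all tested genes. Transgenic mouse 152, at an extreme for 33.4% of all tested genes, was at one for 22.6% of the members. For transgenic mouse 165 these shares were 34.8% of all tested genes and 16.1% of the members. Leaving out mouse 152 brought 4 members, Pik3cb, Phlpp1, Tsc2 and Eif4ebp1, to an unadjusted p under 0.05 as higher, beside Foxo3 as lower, while 16.5% of all tested genes then had such a p in either direction. None passed adjustment (lowest adjusted p of a member 0.160).

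**Figure D3:**
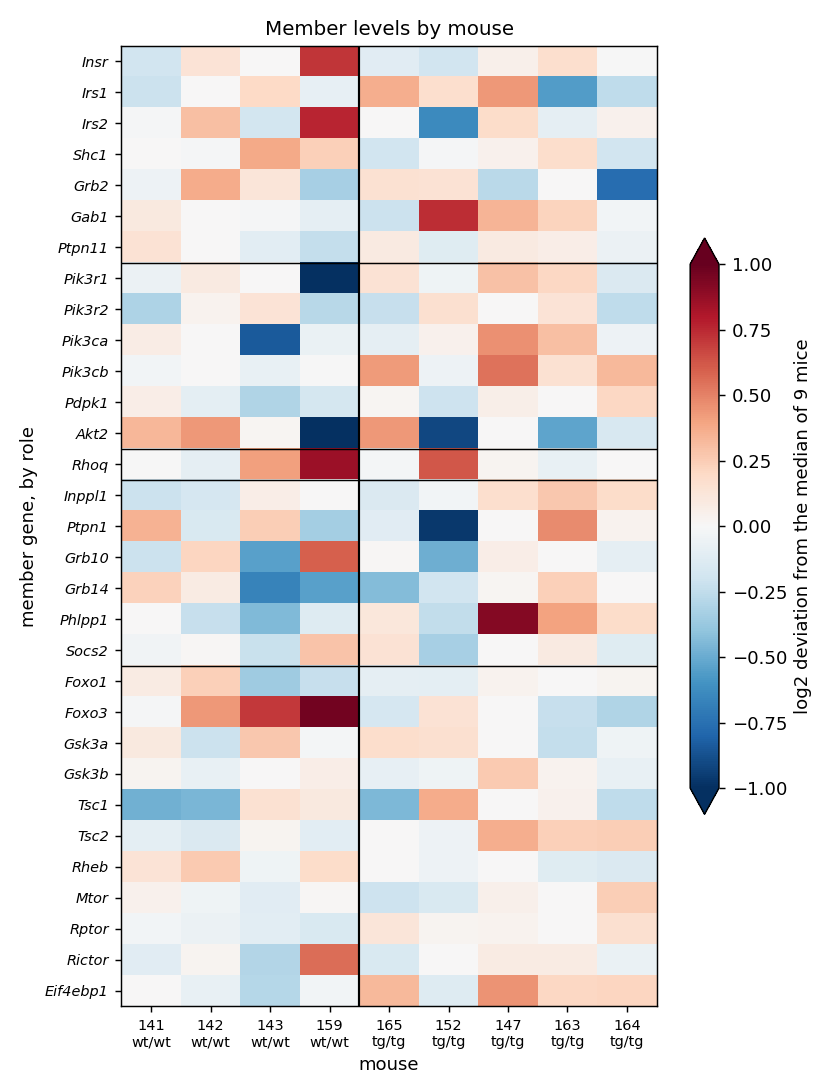
Deviation of each tested member from its median over the 9 mice, in log2 units, with wild-type mice on the left and members ordered by role; colours saturate at 1 log2 unit. Mouse 159 has the strongest colours in both directions, with Pik3r1 and Akt2 low and Foxo3, Rhoq, Irs2 and Insr high.

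Several members were read by more than 1 probe, which shows how far a value rests on the probe. Of the 18 members with 2 or more tested probes, 13 had probes with differences of the same sign. The 3 tested probes of Tsc2 gave 0.24, 0.24 and 0.42, and the 2 bright probes of Pik3r1 gave 0.35 and 0.36, both lowest in mouse 159. Probes pointed in different directions for Mtor, Rheb, Rictor, Shc1 and Tsc1. Mtor gave 0.01 and -0.03, and the 4 probes of Tsc1 ranged from -0.16 to 0.11 (adjusted p from 0.838 to 0.988 over both genes). Rheb gave -0.19 at its bright probe and 0.30 at a dim one (limma adjusted p = 0.631 and 0.537). The 7 tested probes of Rictor, which contributes to the activation of Akt, ranged from -0.13 to 0.28.

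2 dimmer probes reached an unadjusted p under 0.05 where the brightest probe of the gene did not. The second probe of Shc1 read 7.23, 7.25, 6.38 and 6.49 in wild-type mice 141, 142, 143 and 159 and 6.86, 6.12, 6.21, 5.66 and 5.69 in transgenic mice 165, 152, 147, 163 and 164. Of the transgenic mice, only mouse 165 reached the wild-type range, and the difference was -0.73 (unadjusted p = 0.0297, limma adjusted p = 0.487), while another Shc1 probe differed by 0.11. A dim Rptor probe, detected in all 5 transgenic and 2 of 4 wild-type mice, differed by 0.43 (unadjusted p = 0.0140, limma adjusted p = 0.424) and, like the bright one, did not overlap between the genotypes. The annotation does not state which transcript forms these probes read.

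**Figure D4:**
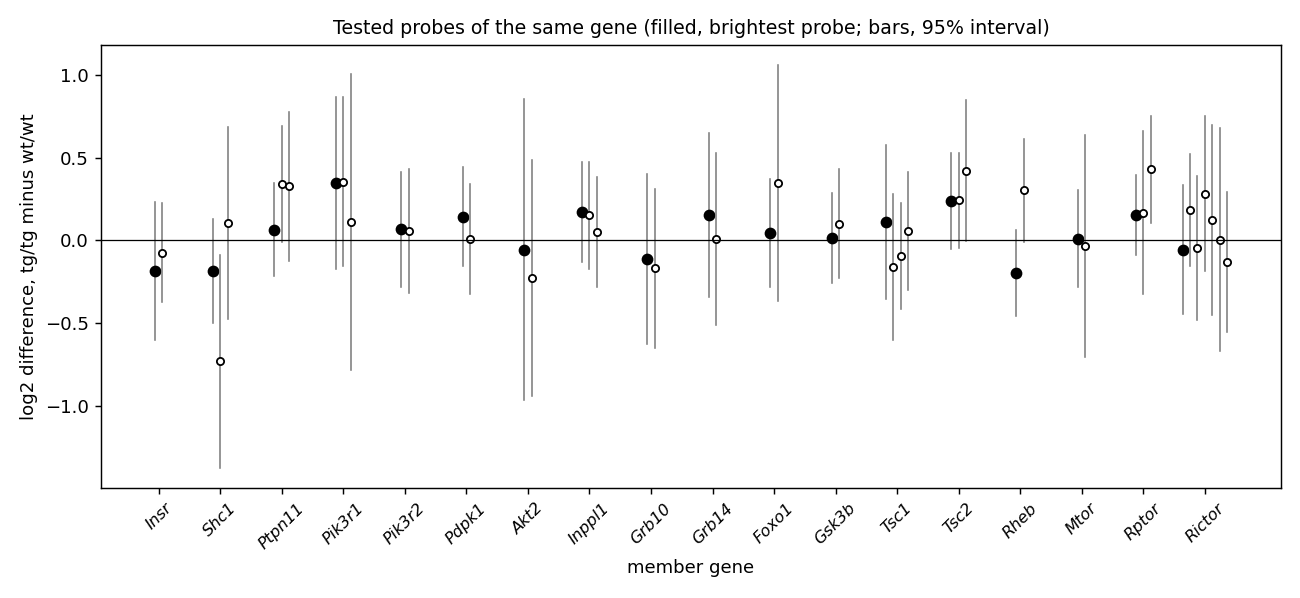
Log2 difference, tg/tg minus wt/wt, of every tested probe for the 18 members with 2 or more, with 95% intervals; the filled point is the brightest probe. Rheb and Shc1 have probes on either side of 0, and the probes of Pik3r2 and Tsc2 lie close together.

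Other genes of the pathway, from lists fixed by name, had no call either. None of 20 tested genes of 26 in the wider cascade, 9 of 19 in the Ras and MAP kinase arm, 12 of 15 further brakes and 14 of 15 FoxO target genes passed (limma with Benjamini-Hochberg adjustment). At an unadjusted p under 0.05 there were 3 higher and 4 lower genes among these, beside 5.55% and 3.49% of all tested genes. In the wider cascade, Mlst8, a subunit of both mTOR complexes, differed by 0.25, the S6 kinase gene Rps6kb2 by 0.52 and the exchange factor gene Rapgef1 by 0.23 (adjusted p = 0.557, 0.575 and 0.686). Dimmer tested probes gave 0.14 and 0.16 for Mlst8 and 0.04 and 0.03 for Rapgef1. Rps6kb2 was 0.19 without background correction. Irs3, a substrate of rodent fat cells, was chosen for naming after its values were seen. It was lowest in mice 159 and 152, at 10.07 and 11.01, and lay between 11.45 and 12.32 in the other 7 (difference 0.59, adjusted p = 0.697).

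In the Ras and MAP kinase arm, the scaffold gene Ksr1 read 6.36, 6.82, 6.68 and 6.99 in wild-type mice 141, 142, 143 and 159 and 7.33, 6.93, 7.70, 7.62 and 7.64 in transgenic mice 165, 152, 147, 163 and 164. Only mouse 152 fell below the highest wild-type mouse (difference 0.73, unadjusted p = 0.00392, limma adjusted p = 0.346), and without background correction the difference was 0.37. Dusp6, the phosphatase that inactivates ERK and a known transcript of active ERK signalling, read 12.97, 12.92, 13.14 and 13.31 in wild-type mice 141, 142, 143 and 159 and 12.74, 12.31, 12.74, 12.63 and 12.77 in transgenic mice 165, 152, 147, 163 and 164. All transgenic mice lay below all wild-type mice (difference -0.45, unadjusted p = 0.0118, limma adjusted p = 0.407), and 2 dimmer probes differed by -0.48 and -0.58 with overlap. Sos2, an exchange factor for Ras, differed by 0.18 (adjusted p = 0.759).

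Among further brakes the docking protein gene Dok1 had the largest difference. It read 9.39, 8.56, 9.61 and 8.16 in wild-type mice 141, 142, 143 and 159 and 7.88, 7.29, 7.22, 7.63 and 7.99 in transgenic mice 165, 152, 147, 163 and 164. No transgenic mouse reached the wild-type range, at a difference of -1.33 or 2.51-fold lower, interval -2.01 to -0.64 (unadjusted p = 0.00150, limma adjusted p = 0.256). A second probe gave -1.04, with mouse 159 inside the transgenic range. Within wild-type fat the summed epididymal markers were higher in mice 141 and 143, at 299299 and 349898, than in mice 142 and 159, at 91194 and 101394, as Dok1 was. In transgenic mouse 152, with a sum of 160037, Dok1 read 7.29. The sum of that mouse differed in make-up from the wild-type sums. Its Gpx5, Adam7 and Lcn5 read 15.88, 15.99 and 14.70, but its Lcn8, Lcn9, Lcn10, Defb48 and Cst11 lay below every wild-type mouse. The part of these markers in Dok1 was not tested. Ppp2ca, a catalytic subunit of protein phosphatase 2A, differed by -0.28 without overlap, and Inpp5k, a lipid phosphatase, by 0.22 (adjusted p = 0.513 and 0.668). Dimmer Inpp5k probes gave 0.24 with overlap, and 0.43 and 0.50 without overlap (adjusted p = 0.767, 0.407 and 0.379).

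Known FoxO target genes had 6 higher and 8 lower means and a median of -0.13. The transcriptional repressor Bcl6 read 12.40, 12.46, 12.26 and 11.75 in wild-type mice 141, 142, 143 and 159 and 12.72, 12.66, 12.58, 12.95 and 13.32 in transgenic mice 165, 152, 147, 163 and 164. Every transgenic mouse lay above every wild-type mouse (difference 0.63, unadjusted p = 0.0110, limma adjusted p = 0.407). The transcriptional regulator Cited2 differed by 0.61 and the pseudokinase gene Trib1 by -0.62, both with overlap (adjusted p = 0.508 and 0.448). A second Trib1 probe gave -0.17, and without background correction the first gave -0.41.

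**Figure D5:**
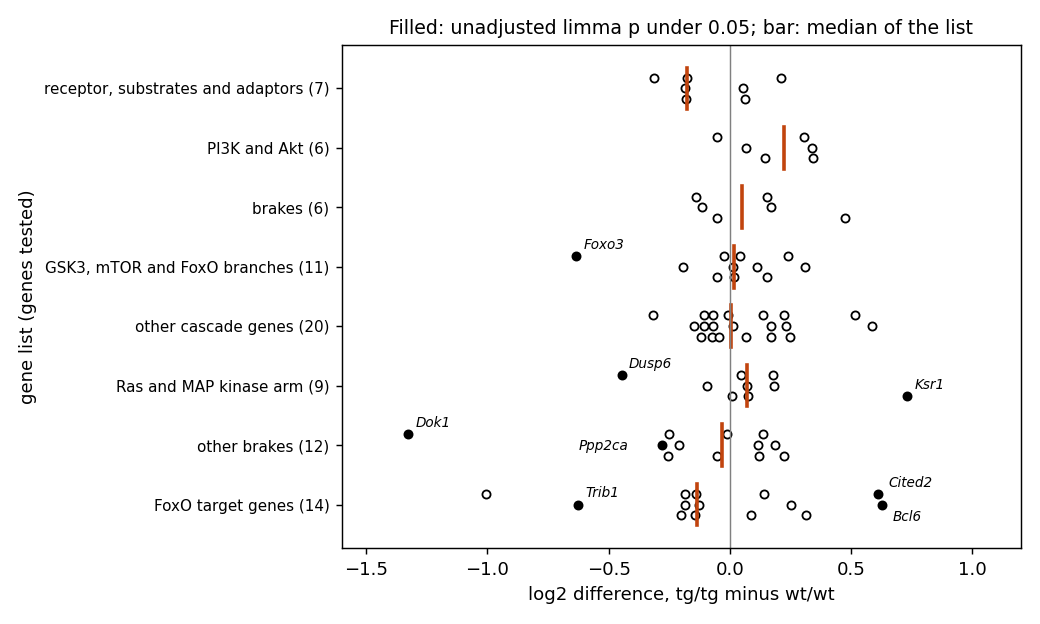
Log2 difference, tg/tg minus wt/wt, of each tested gene in 4 groups of members and 4 lists of other pathway genes; filled points have an unadjusted limma p under 0.05 and the bar is the list's median. The list medians lie between -0.17 and 0.23, and Dok1 lies farthest from 0.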

How the data were processed

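RNA of epididymal fat of 9 mice was measured on Illumina bead arrays; per the labels' protocols it was extracted with Trizol, cleaned on RNeasy columns with DNase and labelled with biotin by an Ambion kit. The labels name no scanner software or normalization. The deposited intensities of the series matrix are on a linear scale. A second deposited table gives intensities and, per the file headers, a detection p-value for each probe. Detection p followed the series matrix intensities on every array (0 places out of order) but not the second table's (5386 to 6789 places on 8 arrays; mouse 147 was identical in both), so the series matrix values were used and the second table is an alternative.

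Intensities were background-corrected and quantile-normalized with neqc of limma 3.58.1 in R 4.3.3, with an offset of 16, and put on the log2 scale. A probe was tested if 4 or more arrays detected it at p under 0.05, which held for 23354 of 45281. Genotypes were compared with lmFit and eBayes without covariates, with two-sided p-values adjusted by Benjamini-Hochberg over all these probes. A gene stands for its brightest kept probe. Probes were named from the platform annotation, where 34885 probes had 1 symbol. Mice are separate animals by their numbers; the labels name no slide or litter, so no batch was tested. The number of arrays limits the precision. Correlations between arrays were 0.903 to 0.990 over these probes.

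The members and lists were chosen with earlier results of these data known. Given with the value in every mouse, or as ranges, were Insr, Irs1, Irs2, Akt2 and Foxo1, the 8 members with the lowest unadjusted p and members without overlap; members whose probes differed in direction or in side of the unadjusted threshold, and the 3 genes of each other list with the lowest unadjusted p, were named with values. The fit was tested on simulated data, where it recovered 90.4% of log2 differences of 2 and 97.4% of those of 4. Smaller differences, such as those of the members, were not simulated. Alternatives were the second table, other background corrections, scalings, offsets and detection filters, array weights, a trended prior, the second probe of each gene and leaving out mice.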

Additional observations from a re-analysis of the deposited data

Results flagged for a closer look

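In each genotype the highest or lowest mouse was set against the others by Dixon's test for the 31 members and 12 other named genes, 86 groups in all, of which chance alone flags about 1 in 20. 5 were flagged. Pik3r1 read 12.71 in wild-type mouse 159, against 13.69 to 13.84 in the other wild-type mice. Pik3ca read 8.52 in wild-type mouse 143, against 9.30 to 9.44 in the others. In transgenic mouse 152, Rhoq read 11.13 against 10.44 to 10.54, Grb10 read 11.78 against 12.18 to 12.33, and Rapgef1 read 11.18 against 11.60 to 11.76 in the other transgenic mice.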

How the results depend on the processing

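No member passed under any alternative except one: without background correction or normalization between arrays, 7 members were called higher, with 4810 probes higher and 57 lower; 16 members were then higher and 0 lower at an unadjusted p under 0.05, while 49.4% of all tested genes had such a p in either direction, 30 had a higher and 1 a lower mean, and their median of 0.38 stood beside 0.34 over all tested genes. Of 532 values of named genes under alternatives, 493 kept their direction and side of the threshold and 24 changed sign. 15 newly passed, 13 of them with neither background correction nor normalization, and with array weights Dok1 (-1.50, limma adjusted p = 0.0314) and Ksr1 (1.01, adjusted p = 0.0202). Probes called higher were 1 with the second table, without background correction, with an offset of 50 and with a trended, robust prior, and 170, beside 183 lower, with array weights. Lower probes were 9 without the detection filter and 1 with detection on all 9 arrays. Members at an unadjusted p under 0.05 were 1 higher and 0 lower with the second table, where 8.54% of all tested genes had such a p in either direction. They were 3 higher and 2 lower without background correction (9.66% of all tested genes) and without the detection filter (8.82%). With the offset of 50 they were 2 higher and 1 lower (9.33%), and with the trended prior 2 higher (9.04%). With array weights 5 were higher, where 19.3% of all tested genes had such a p in either direction against 9.05% without weights. With the second probe of each gene 2 were lower. With mice 152 and 159 left out, an alternative chosen after seeing the data, 6 probes were higher and 40 lower. At an unadjusted p under 0.05, 3 members were higher and Foxo3 was lower (-0.55), beside 16.1% of all tested genes in either direction. Insr was then 0.043 and Irs2 0.0016. Leaving out 1 mouse at a time gave 0 to 10 probes higher and 9 to 40 lower, both most without mouse 152. At an unadjusted p under 0.05 it gave 0 to 4 members higher, and Foxo3 lower each time. Of all tested genes, 6.01% to 16.5% then had such a p in either direction.

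Values that changed sign were as follows. With the second table Irs1 was -0.021, Akt2 0.013 and Foxo1 -0.0021. With neither background correction nor normalization Insr was 0.15, Irs2 0.071, Akt2 0.30, Rheb 0.13 and Ppp2ca 0.031. With array weights Insr was 0.050, Irs1 -0.014 and Foxo1 -0.0097. With 1 mouse left out Irs1 ranged from -0.045 to 0.20, Akt2 from -0.49 to 0.15 and Foxo1 from -0.051 to 0.15. Rheb was 0.30 at its second probe. The cause of these shifts was not tested. No paired analysis was possible because the genotypes share no replicate numbers.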
